A study of Mus musculus with 96 samples.

Results

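The genes described here are 5 that make, load, take up and break down GABA, the main inhibitory transmitter of the cortex: Gad1, Gad2, Slc32a1, Slc6a11 and Abat. They were chosen by name, though with earlier results of these data known, and are 5 of the 55335 gene identifiers in the count table. All 5 passed the filter on low counts, both in VIP nuclei and in total nuclei. GABA is made from glutamate by glutamate decarboxylase, which has a largely cytosolic form encoded by Gad1 and a form held at synaptic vesicles encoded by Gad2. The vesicular transporter encoded by Slc32a1 loads GABA into vesicles, plasma membrane transporters such as the one encoded by Slc6a11 clear it, and the mitochondrial transaminase encoded by Abat begins its breakdown. In the cortex, Gad1, Gad2 and Slc32a1 are used as markers of inhibitory interneurons, Slc6a11 is known mainly from astrocytes, and Abat from both neurons and astrocytes.

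The study asked how enhancers of Igf1, a growth factor gene, act when mice see light after darkness, in the VIP cells of the cortex, inhibitory neurons named for the peptide they release. RNA was counted in 96 libraries of 50 to 100 nuclei each, sorted from visual cortex either as VIP nuclei (48 libraries) or as total nuclei (48 libraries). All mice carried VIP flp/wt and a homozygous floxed allele: Igf1-E1 fl/fl (line E1), Igf1-E23 fl/fl (line E23) or Igf1-E123 fl/fl (line E123). All were injected in the visual cortex at 55 to 60 days of age with AAV-Syn1-fDIO-mScarlet-KASH-2a-Cre or with its control counterpart carrying dCre in place of Cre, and 3 days later were housed in darkness for 10 to 12 days. Light groups then had 1 h of light, and dark groups had none. The virus depends on Flp and so on VIP cells, and its promoter is that of Syn1, a neuronal gene. In each fraction the light groups held 4 (E1), 4 (E23) and 4 (E123) Cre libraries and 5, 4 and 4 dCre libraries, and the dark groups held 5, 4 and 3 Cre libraries and 3, 4 and 4 dCre libraries. The labels number the libraries of a group as biological replicates but do not say whether each is 1 animal, so p-values measure the spread between these samples.

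VIP libraries held 1559883 to 9122515 counts and total libraries 1881731 to 8972526. Several marker lists went with the sorted label. In VIP nuclei 8 of 8 VIP interneuron markers and 8 of 8 other GABAergic markers were higher than in total nuclei. Lower were 10 of 10 excitatory neuron, 9 of 9 oligodendrocyte lineage and 7 of 7 microglia markers. Other lists were less clear: 3 of 10 astrocyte markers were lower, and 2 of 6 endothelial and mural markers were higher. Counts higher and lower were 2 and 2 of 5 somatostatin, 2 and 2 of 4 Lamp5 and Sncg, and 1 and 3 of 5 parvalbumin markers. Of all genes tested, 14.8% were called higher and 20.7% lower. Vip was 124-fold and Igf1 58.9-fold higher in VIP nuclei, and Igf1 differed by −0.61 (log2, adjusted p = 0.000949) between Cre and dCre VIP nuclei. The deletion of the enhancers was not itself measured, since gene counts do not cover them. Sex-linked genes went against the sex label in 2 of 96 libraries, the VIP and total library of E123 dCre dark replicate 2. Replicates 1 and 2 of E1 dCre dark and of E123 dCre dark stood apart in the length index, the mean log2 CPM of protein-coding genes spanning over 100 kb minus that of those under 10 kb, with 4.18, 4.19, 4.25 and 4.28 in VIP nuclei, where all light dCre VIP libraries lay between 1.9 and 3.4. The members' calls for light and for Cre that rest on these libraries are given below with and without them. Values of other named genes, such as Igf1, Vip, Glul and Pdxp, and of marker lists are given only with them. With the length index as a covariate, 0 genes were called between Cre and dCre VIP nuclei, so Igf1 did not pass there.

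The promoters of Gad1 and Gad2 are shown because these are the members that differed together with light in VIP nuclei. Each line gives the 250 bases before the RefSeq start on the plus strand of GRCm38.p6, chr2:70561879-70562128 for Gad1 and chr2:22622077-22622326 for Gad2, and capitals mark a CRE core. Both starts lie inside the spans that the gene annotation gives below:
Gad1: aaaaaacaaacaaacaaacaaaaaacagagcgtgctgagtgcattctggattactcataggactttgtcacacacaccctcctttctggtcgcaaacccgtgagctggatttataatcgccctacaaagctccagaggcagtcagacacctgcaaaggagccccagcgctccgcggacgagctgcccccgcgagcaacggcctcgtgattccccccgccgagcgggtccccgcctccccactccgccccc
Gad2: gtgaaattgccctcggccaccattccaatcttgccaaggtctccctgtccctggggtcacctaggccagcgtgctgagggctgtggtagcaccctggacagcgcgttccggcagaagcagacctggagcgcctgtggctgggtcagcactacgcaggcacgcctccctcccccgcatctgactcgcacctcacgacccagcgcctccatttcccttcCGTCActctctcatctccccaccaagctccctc
Of the 5 members, 4 had an entry in the RefSeq table. Both strands were searched for TGACG (the CRE core, which also lies within the full CRE), TGACGTCA (the full CRE), TGANTCA (AP-1) and GCGNGGGCG (EGR). The only match among the 4 windows was 1 CRE core in Gad2, on the minus strand, whose first base lies at −33 from the start. Of 27025 promoter windows of the same length, 17.9% held the CRE core, 1.62% the full CRE, 6.87% the AP-1 letters and 4.65% the EGR letters. Bases G and C made up 58.0% of the Gad1 window and 64.0% of the Gad2 window.

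All 5 genes were higher in VIP nuclei than in total nuclei. Levels are counts per 1000000 (CPM) on TMM-scaled library sizes, fold changes and SEs come from edgeR's quasi-likelihood fit of all 96 libraries, and a gene passed at a Benjamini-Hochberg adjusted p under 0.05. Among all 22926 genes tested, 14.8% were called higher in VIP nuclei and 35.5% were called in either direction. The median log2 difference of all genes was −0.11 and that of the 5 members 2.74. In bulk samples, fewer cells of a type and less RNA per cell cannot be told apart.

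Gad1 (ENSMUSG00000070880, chromosome 2, 70553072 to 70602014, plus strand, mm10) averaged 548.9 ± 204 CPM in VIP nuclei and 82.2 ± 45.2 CPM in total nuclei (SD, n = 48 each). Its VIP libraries ran from 122.0 through a median of 522.7 to 955.1 CPM, and its total libraries from 14.2 through 78.8 to 231.1. Of the 48 VIP libraries, 46 lay above every total library. The log2 difference was 2.74 ± 0.13 (SE, adjusted p = 2.52e-32), a 6.67-fold difference. Gad1os, an antisense gene that overlaps Gad1, averaged 22.7 CPM in VIP nuclei and 3.57 in total nuclei, and the counting is not stated to use strand, so reads where the genes overlap may not be told apart.

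Gad2 (ENSMUSG00000026787, chromosome 2, 22622205 to 22693874, plus strand) averaged 274.4 ± 90.2 CPM in VIP nuclei and 37.1 ± 19.8 CPM in total nuclei (n = 48 each). Its VIP libraries ran from 100.6 through 274.4 to 509.4 CPM, and its total libraries from 3.72 through 36.5 to 94.6. No library of one fraction overlapped those of the other. The log2 difference was 2.85 ± 0.15 (adjusted p = 2.54e-28), or 7.22-fold.

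Slc32a1 (ENSMUSG00000037771, chromosome 2, 158610767 to 158615748, plus strand), the vesicular GABA transporter gene, had the lowest levels of the set. It averaged 14.1 ± 5.50 CPM in VIP nuclei, with a lowest library of 3.00, a median of 12.96 and a highest of 32.9. In total nuclei it averaged 1.54 ± 1.51 CPM, with a median of 1.01 and a highest library of 5.81, and 7 of 48 libraries held no count. In each of those 7, a count of 0 allows a level of up to 0.458 to 1.59 CPM (3 counts per library, counting error only). Of 48 VIP libraries, 45 lay above every total library. The log2 difference was 3.28 ± 0.26 (adjusted p = 2.17e-19), or 9.73-fold. Median counts were 62 per VIP library and 4 per total library, so differences within total nuclei were measured with little precision. An antisense gene, Gm14205, overlaps it and averaged 2.21 CPM in VIP nuclei and 0.312 in total nuclei.

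Slc6a11 (ENSMUSG00000030307, chromosome 6, 114131241 to 114249952, plus strand) encodes a GABA transporter of the plasma membrane. It averaged 37.5 ± 18.8 CPM in VIP nuclei and 14.6 ± 8.46 CPM in total nuclei (n = 48 each). VIP libraries ran from 7.26 through 34.7 to 92.6 CPM and total libraries from 0.947 through 13.4 to 37.5, so the fractions overlapped, with 19 of 48 VIP libraries above every total library. The log2 difference was 1.48 ± 0.15 (adjusted p = 2.61e-14), or 2.78-fold. Its VIP level exceeded that of the total library of the same condition and number in 44 of 48 pairs, against 48 of 48 pairs for each of the other 4 genes. Of 10 astrocyte markers, 0 were higher and 3 lower in VIP nuclei, where 14.8% of all genes were called higher and 20.7% lower. The summed level of these markers ran from 201.3 to 2370 CPM in VIP nuclei (mean 460.5) and from 283.5 to 978.5 in total nuclei (mean 526.8). The part of astrocyte RNA in the Slc6a11 levels was not tested. Aqp4 was at 0 in 12 of 48 VIP and 5 of 48 total libraries, and Gjb6 in 15 and 5.

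Abat (ENSMUSG00000057880, chromosome 16, 8513429 to 8621568, plus strand), the GABA transaminase gene, averaged 84.4 ± 28.3 CPM in VIP nuclei and 29.4 ± 11.4 CPM in total nuclei (n = 48 each). VIP libraries ran from 26.3 through 80.9 to 158.7 CPM and total libraries from 10.5 through 28.9 to 64.7, so the 2 fractions overlapped. The log2 difference was 1.53 ± 0.11 (adjusted p = 5e-23), or 2.89-fold. Within single conditions, Gad1, Gad2 and Abat passed in 12 of 12, Slc32a1 in 7 and Slc6a11 in 6. Of all genes, the share called higher in VIP nuclei was, in E1, 3.24% in Cre light mice, 3.59% in Cre dark mice, 3.23% in dCre light mice, 2.49% in dCre dark mice. In E23 it was 2.59% in Cre light mice, 2.7% in Cre dark mice, 2.72% in dCre light mice, 2.7% in dCre dark mice, and in E123 it was 1.71% in Cre light mice, 1.22% in Cre dark mice, 2.03% in dCre light mice, 1.06% in dCre dark mice. The single-condition differences ran from 2.26 to 3.61 (log2) for Gad1, 1.77 to 4.05 for Gad2, 2.21 to 4.44 for Slc32a1, 0.68 to 2.69 for Slc6a11 and 1.21 to 2.08 for Abat.

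**Figure D1:**
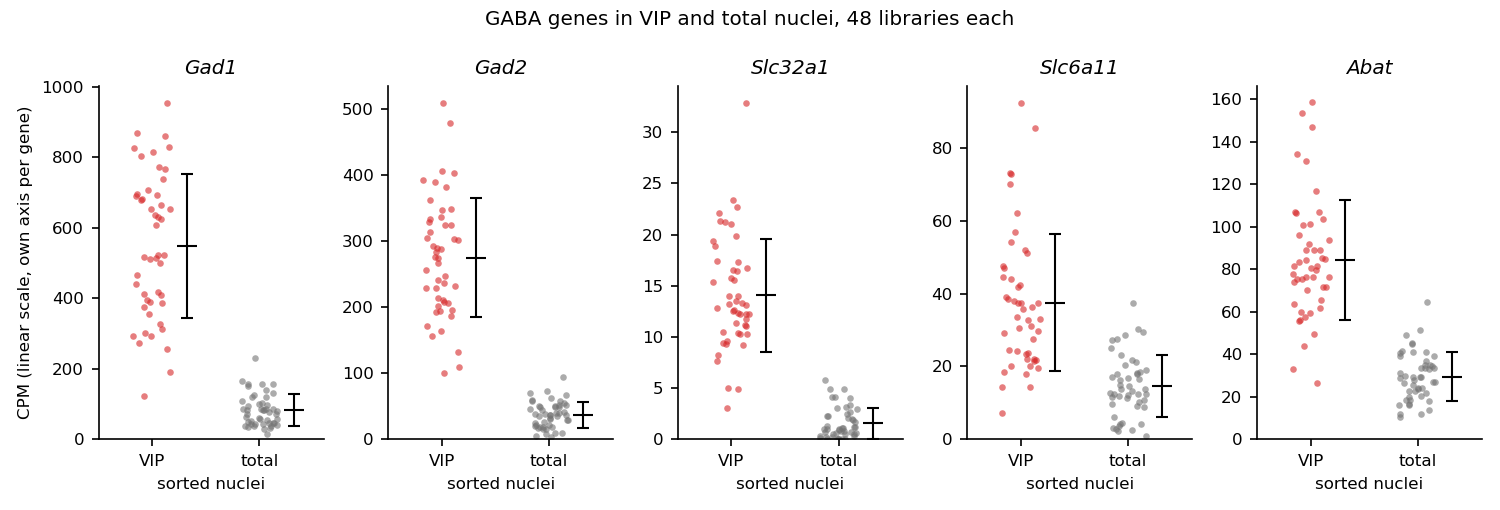
CPM of each gene in 48 VIP libraries (left, red) and 48 total libraries (right, grey), each gene on its own linear axis from 0, with the black bar at the mean and whiskers of 1 SD. Gad2 shows no overlap between the fractions, with a lowest VIP library of 100.6 and a highest total library of 94.6 CPM, while Gad1, Slc32a1, Slc6a11 and Abat overlap.

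Set per kb of merged exon, so that genes can be compared, the mean levels in VIP nuclei were 71.9 ± 26.8 CPM per kb for Gad1, 46.7 ± 15.3 for Gad2, 10.9 ± 3.65 for Abat, 7.43 ± 3.73 for Slc6a11 and 5.03 ± 1.97 for Slc32a1 (SD, n = 48). In total nuclei the order was the same, with 10.8 ± 5.92, 6.32 ± 3.37, 3.798 ± 1.47, 2.88 ± 1.68 and 0.550 ± 0.541 CPM per kb. Whether reads in introns were counted is not given in the sources used here, so these are lengths of annotated exon only. The relative spread over VIP libraries was smallest for Gad2 (SD of 32.9% of the mean) and Abat (33.5%) and largest for Slc6a11 (50.2%).

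Of 20 other genes of GABA uptake, GABA breakdown and glutamate and glutamine supply, 5 were higher and 2 lower in VIP nuclei. The shares over all genes were 14.8% and 20.7%. These 20 genes had a median log2 difference of −0.03. Among those higher, Pdxk, which makes the cofactor of glutamate decarboxylase and GABA transaminase, differed by 0.81. Aldh5a1, which oxidises the product of GABA transaminase, differed by 0.66, the glutamine transporter gene Slc38a1 by 0.62 and the aldehyde dehydrogenase gene Aldh9a1 by 0.46. The glutamate transporter gene Slc1a1 and the glutamine transporter gene Slc38a2 were lower, by −0.48 and −0.38.

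Whether 1 h of light changes these genes was asked first in dCre mice, the controls of the virus. In VIP nuclei, Gad1 and Gad2 rose with light and Slc6a11 fell, while Slc32a1 and Abat did not pass. Averaged over the 3 lines and tested over all 20585 genes of the VIP fit, 3.97% of genes were called higher after light and 2.3% lower, against 2 higher and 1 lower of the 5 members. The background itself moved with the libraries: 1290 genes were called in either direction, 646 to 2523 when 1 replicate was left out, 78 without E1 dCre dark replicates 1 and 2, 52 without these and those of E123, and 137 with the length index as a covariate. The median log2 change of the 5 members was 0.14 and that of all genes 0.01. Below, groups are also compared by the overlap of their libraries and by the direction of their means. These were counted for the members only, and the share of all genes with the same pattern is not known.

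Gad1 in dCre VIP nuclei of line E1 stood at 441.5, 681.4, 523.0, 635.5 and 696.9 CPM after light, against 387.9, 293.3 and 273.9 CPM in the dark. Line E23 had 522.4, 830.0, 802.2 and 691.7 CPM after light, against 374.3, 313.0, 408.0 and 677.9 in the dark, and line E123 had 417.3, 500.6, 410.5 and 293.3 after light, against 190.3, 122.0, 301.9 and 254.6. Every light library of E1 lay above every dark one, while a dark library of E23 and one of E123 reached into the range of the light group. The averaged log2 change was 0.85 ± 0.16 (edgeR, adjusted p = 0.00105), or 1.8-fold, and it was 0.98 ± 0.29 in E1, 0.66 ± 0.27 in E23 and 0.91 ± 0.27 in E123. Of the single lines, E1 passed (adjusted p = 0.038, with 2.68% of genes called higher). E23 (0.466) and E123 (0.453) did not, where 0.034% and 0.00972% of all genes were called higher. That E1 call was lost in 7 of 8 fits that left out 1 of its libraries (0.89 to 1.11, highest adjusted p = 0.188). With the length index as a covariate the E1 change was 0.35 and did not pass (edgeR, adjusted p = 0.73). Without dark replicates 1 and 2, which leaves only dark replicate 3 in E1, the change was 1.13.

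Gad2 in dCre VIP nuclei of E1 stood at 236.5, 334.0, 347.4, 305.1 and 336.8 CPM after light, against 211.2, 195.6 and 201.8 CPM in the dark. In E23 it stood at 292.7, 324.5, 389.9 and 382.4 CPM after light, against 247.7, 171.6, 194.1 and 266.6, and in E123 at 192.1, 288.4, 228.6 and 208.3 after light, against 131.3, 100.6, 186.5 and 108.5. In each of the 3 lines, every light library lay above every dark library, and how many of all genes did so was not counted. The averaged log2 change was 0.72 ± 0.14 (adjusted p = 0.00117), or 1.64-fold, with 0.70 ± 0.24 in E1, 0.64 ± 0.23 in E23 and 0.81 ± 0.23 in E123, none of which passed alone (adjusted p = 0.0869, 0.451 and 0.368).

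Without E1 dCre dark replicates 1 and 2 the Gad1 and Gad2 changes were 0.90 and 0.70 (adjusted p = 0.0213 and 0.0417) and passed, but without these and E123 dCre dark replicates 1 and 2 they were 0.78 and 0.64 and did not pass (adjusted p = 0.0899 and 0.124). With the length index as a covariate, Gad1 changed by 0.52 (adjusted p = 0.125) and Gad2 by 0.63 (0.0236). The length index averaged 2.62 in light and 3.29 in dark dCre VIP nuclei, and across VIP libraries centred on their groups its r with Gad1 was −0.48 and with Gad2 −0.12 (n = 48, libraries sharing depth and scaling). Vip differed by 0.95 (adjusted p = 0.0242) and 4 of 8 GABAergic markers other than the members were higher after light, although the summed level of those 8 averaged 5638 CPM in light (4051 to 7471) and 6639 CPM in dark dCre VIP nuclei (3347 to 9392). Of markers of other cells, 4 of 10 astrocyte and 1 of 9 oligodendrocyte lineage markers passed as higher after light. So did 1 of 10 excitatory neuron, 1 of 7 microglia, 2 of 5 somatostatin and 1 of 5 parvalbumin markers. None of the 6 endothelial and mural or 4 Lamp5 and Sncg markers did, and 3.97% of all genes were called higher. The summed level of oligodendrocyte lineage markers ran from 119.2 to 2010 CPM in light and from 71.1 to 357 in dark dCre VIP nuclei. The part of any of these in the Gad1 and Gad2 changes was not tested.

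Slc6a11 in dCre VIP nuclei of E1 stood at 24.3, 37.3, 21.6, 31.1 and 29.1 CPM after light, against 70.2, 85.7 and 92.6 CPM in the dark, with no overlap. In E23 it stood at 14.5, 30.5, 32.6 and 17.9 CPM after light, against 27.5, 38.5, 33.6 and 52.1, and in E123 at 23.8, 21.8, 44.0 and 46.9 after light, against 62.2, 37.9, 42.4 and 37.3. Both of these lines overlapped between light and dark. The averaged log2 change was −0.84 ± 0.26 (adjusted p = 0.0375), and it was −1.46 ± 0.44 in E1 (adjusted p = 0.0459, with 1.5% of genes called lower), −0.68 ± 0.44 in E23 and −0.40 ± 0.44 in E123 (adjusted p = 0.662 and 0.975). The averaged call was lost in 10 of 24 fits that left out 1 replicate and under 7 of 10 other settings, with a change of −0.91 (adjusted p = 0.147) without E1 dCre dark replicates 1 and 2, −0.86 (0.316) without these and those of E123, and −0.59 (0.423) with the length index. The summed level of 10 astrocyte markers, of which 4 passed as higher after light, was 235.0 to 1327 CPM (mean 552.2) in light dCre VIP nuclei. In dark dCre VIP nuclei it was 224.7 to 385.8 CPM (mean 309.2). The part of astrocyte RNA in the Slc6a11 change was not tested. The E1 call was lost in 8 of 8 fits that left out 1 of its libraries (−1.60 to −1.33, adjusted p up to 0.133). With the length index as a covariate the E1 change was −1.03 and did not pass (edgeR, adjusted p = 0.443).

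Slc32a1 ranged over 9.18 to 32.9 CPM (median 12.7) in light and 7.67 to 21.2 CPM (median 12.3) in dark dCre VIP nuclei, a log2 change of 0.14 ± 0.28 (adjusted p = 0.853) with a 95% interval of −0.40 to 0.69. Abat ranged over 26.3 to 153.4 CPM (median 84.1) in light and 59.6 to 158.7 CPM (median 96.01) in dark dCre VIP nuclei, a change of −0.29 ± 0.19 (0.395; interval −0.67 to 0.09). In both genes the light and dark libraries overlapped in each of the 3 lines. Of 17 other genes of the pathway tested in VIP nuclei, 2 were higher after light and none lower. They were Glul, the glutamine synthetase gene best known from astrocytes (1.74 ± 0.43, adjusted p = 0.0125), and Pdxp, which removes the phosphate from the cofactor of glutamate decarboxylase (1.21 ± 0.37, 0.0385).

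**Figure D2:**
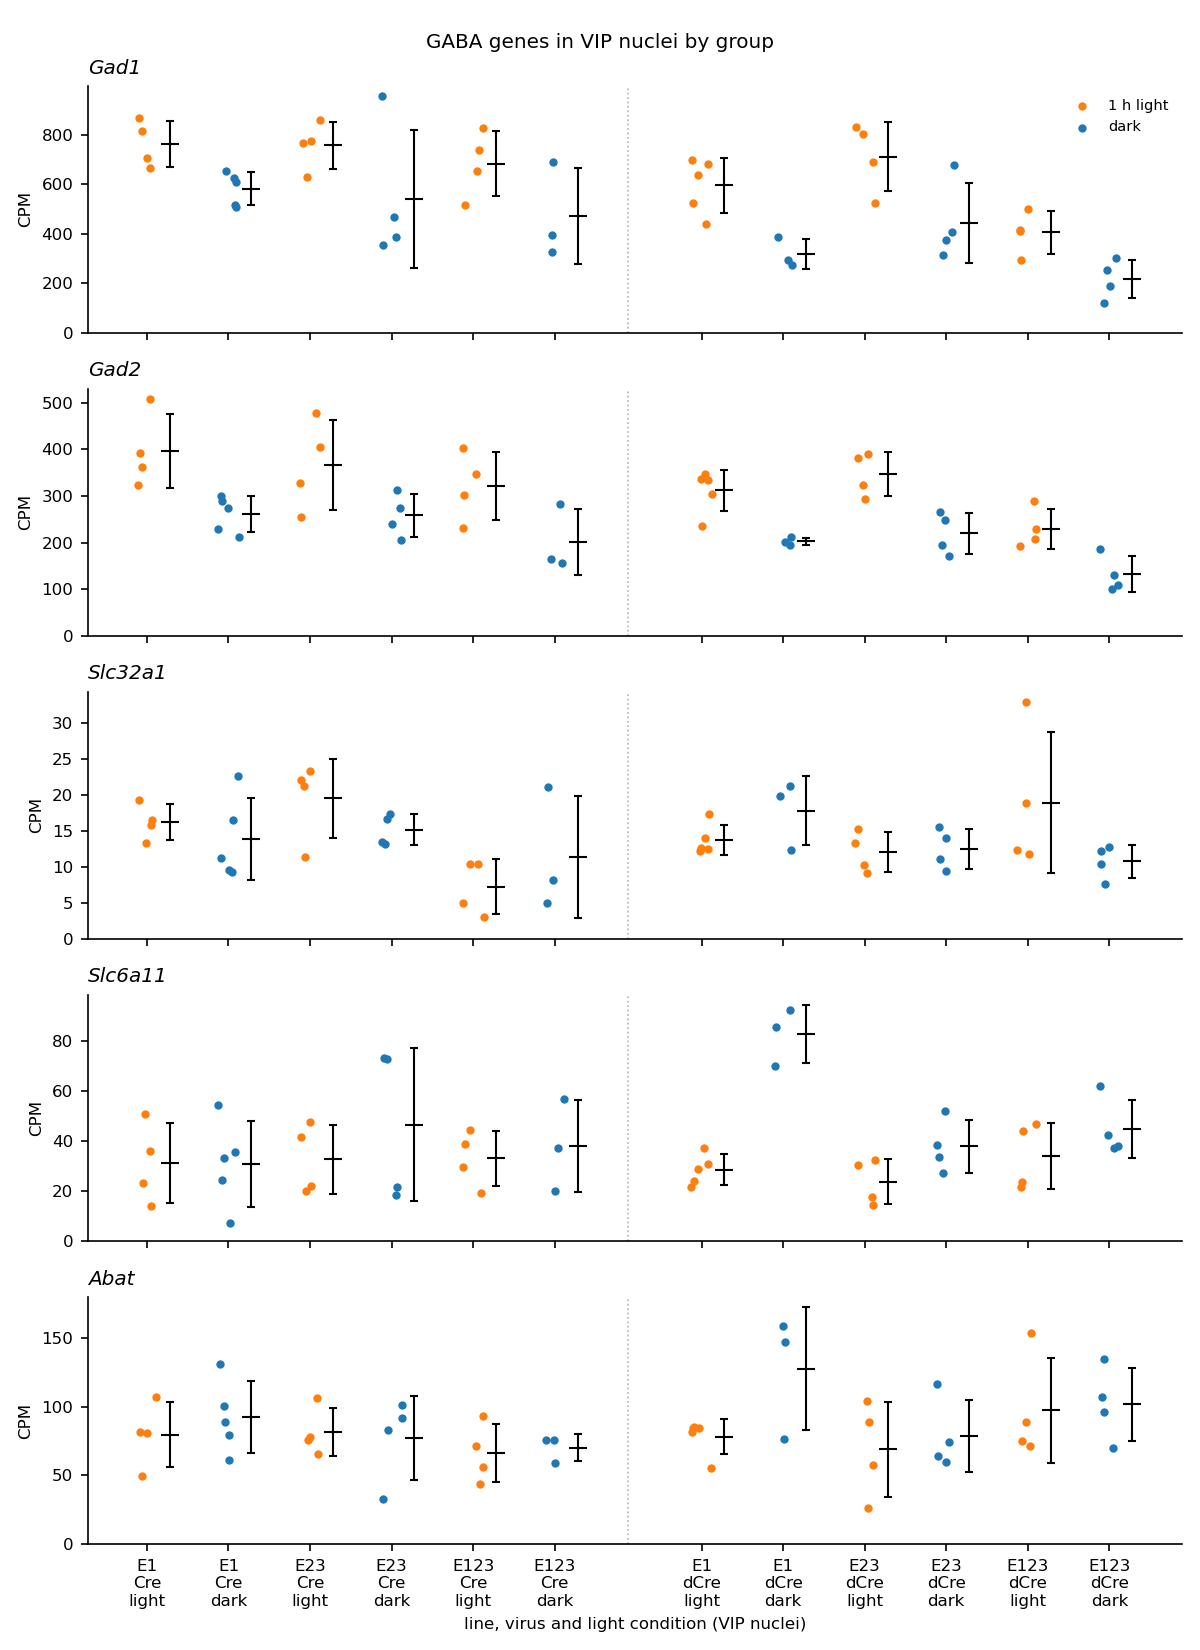
CPM in VIP nuclei by line, virus and light condition, with Cre groups left and dCre groups right of the dotted line, orange for 1 h of light and blue for dark. Points are libraries, the bar is the group mean and whiskers are 1 SD. Gad1 and Gad2 means stand higher after light in 6 of 6 pairs of groups, and Slc6a11 is highest in E1 dCre dark.

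In Cre mice, the light response of VIP nuclei was asked again with the enhancers targeted. Only 0.267% of genes were called higher and 0.0826% lower, and of the members Gad2 was called and the other 4 were not. Gad2 in Cre VIP nuclei of E1 stood at 391.6, 509.4, 362.5 and 324.7 CPM after light, against 213.0, 289.8, 301.1, 273.8 and 229.3 in the dark. It stood at 477.9, 255.5, 328.2 and 405.9 after light, against 241.0, 206.3, 275.0 and 313.9, in E23, and at 231.8, 347.9, 302.6 and 403.2, against 155.6, 163.7 and 283.2, in E123. Light and dark did not overlap in E1 and did in the other 2 lines. The log2 change was 0.59 ± 0.14 (adjusted p = 0.0226), or 1.51-fold. The call was lost without E1 Cre light replicate 2 (0.55, adjusted p = 0.0586), E123 Cre light replicate 4 (0.55, 0.0654), E23 Cre light replicate 1 (0.54, 0.0577) or E123 Cre dark replicate 1 or 2 (0.54 and 0.55, 0.109 and 0.106).

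Gad1 in Cre VIP nuclei of E1 stood at 665.2, 867.6, 707.8 and 814.5 CPM after light, against 509.8, 607.2, 623.8, 654.3 and 516.5 in the dark, without overlap. It stood at 861.1, 629.5, 773.3 and 765.2 after light, against 355.4, 385.2, 955.1 and 467.1, in E23, and at 515.2, 653.8, 737.3 and 825.5, against 326.2, 396.0 and 690.9, in E123. The highest of the 48 VIP libraries, at 955.1 CPM, was thus a dark one. The log2 change was 0.47 ± 0.16 (adjusted p = 0.229). Slc32a1 (−0.02 ± 0.28), Slc6a11 (−0.22 ± 0.26) and Abat (−0.07 ± 0.19) had adjusted p of 0.919 to 1.

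The light responses of Cre and dCre VIP nuclei were tested against each other. The difference, Cre minus dCre, was −0.38 ± 0.22 for Gad1 (95% interval −0.82 to 0.05) and −0.13 ± 0.19 for Gad2 (−0.50 to 0.25), and no member passed (adjusted p of 0.612 to 1), nor did 17 of 17 other genes of the pathway. Of all genes, 0.00486% passed in that test. The means of Gad1 and of Gad2 were higher after light in 6 of 6 pairs of groups in VIP nuclei, counting lines and viruses, and those of Slc32a1 in 3, of Slc6a11 in 1 and of Abat in 1. How many of all genes were higher in 6 of 6 pairs was not counted. Differences in the light response between pairs of lines also passed for no member, and hardly for any gene: 0.0534% of all genes passed for E1 minus E123 in dCre VIP nuclei, 0.0236% for E1 minus E23 in dCre total nuclei, and none in the other 10 such comparisons (edgeR, 973 to 2336 genes with an unadjusted p under 0.05).

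In total nuclei, where VIP cells are a small minority, no member was called for light. In Cre mice 1.09% of genes were called higher and 0.396% lower after light, and in dCre mice 3.42% and 2.27%. Gad1 ran from 38.5 through a median of 92.6 to 231.1 CPM in light and from 28.1 through 47.0 to 156.4 CPM in dark dCre total nuclei (n = 13 and 11), a log2 change of 0.72 ± 0.30 (adjusted p = 0.159). Light and dark overlapped over all lines, but in E1 every light library (130.3, 231.1, 98.2, 62.6 and 96.3 CPM) lay above every dark one (50.3, 47.0 and 43.9). Without the filter on low counts the Gad1 change was 0.71 and passed (adjusted p = 0.00223). Gad2 changed by −0.35 ± 0.37 in Cre and −0.11 ± 0.37 in dCre total nuclei, and Gad1 by 0.10 ± 0.30 in Cre total nuclei (adjusted p of 0.822 to 0.973).

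In Cre total nuclei Slc6a11 ran from 0.947 through 7.54 to 20.4 CPM after light and from 4.12 through 14.3 to 25.0 CPM in the dark (n = 12 each). In dCre total nuclei it ran from 2.79 through 12.5 to 28.7 CPM after light and from 12.5 through 19.0 to 37.5 CPM in the dark (n = 13 and 11). Its means were lower after light in 6 of 6 pairs of groups, but single libraries of light and dark overlapped in 5 of them. The log2 changes were −0.91 ± 0.33 in Cre (adjusted p = 0.18) and −0.68 ± 0.32 in dCre total nuclei (0.216), neither past the threshold. Abat changed by −0.31 ± 0.22 in Cre (0.653) and −0.55 ± 0.22 in dCre total nuclei (0.131), and the SE of Slc32a1 was 0.81 in both. Of 19 other genes of the pathway tested in total nuclei, Pdxp alone was called, higher after light in dCre mice (0.90 ± 0.29, adjusted p = 0.0495).

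The light response was compared directly between VIP and total nuclei in the fit of all 96 libraries. For Gad2 the response of VIP nuclei exceeded that of total nuclei by 0.95 ± 0.40 in Cre (unadjusted p = 0.0196) and by 0.81 ± 0.40 in dCre mice (0.0449), neither of which passed (edgeR, adjusted p = 0.746 and 0.817). For Gad1 the differences were 0.37 ± 0.34 in Cre and 0.12 ± 0.34 in dCre mice, and for Slc6a11 they were 0.69 ± 0.42 and −0.18 ± 0.42. In Cre mice 0.00872% of genes were called in this test, and in dCre mice none were (1361 of 22926 had an unadjusted p under 0.05). The test does not show a light response of these genes that differs between VIP and total nuclei.

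**Figure D3:**
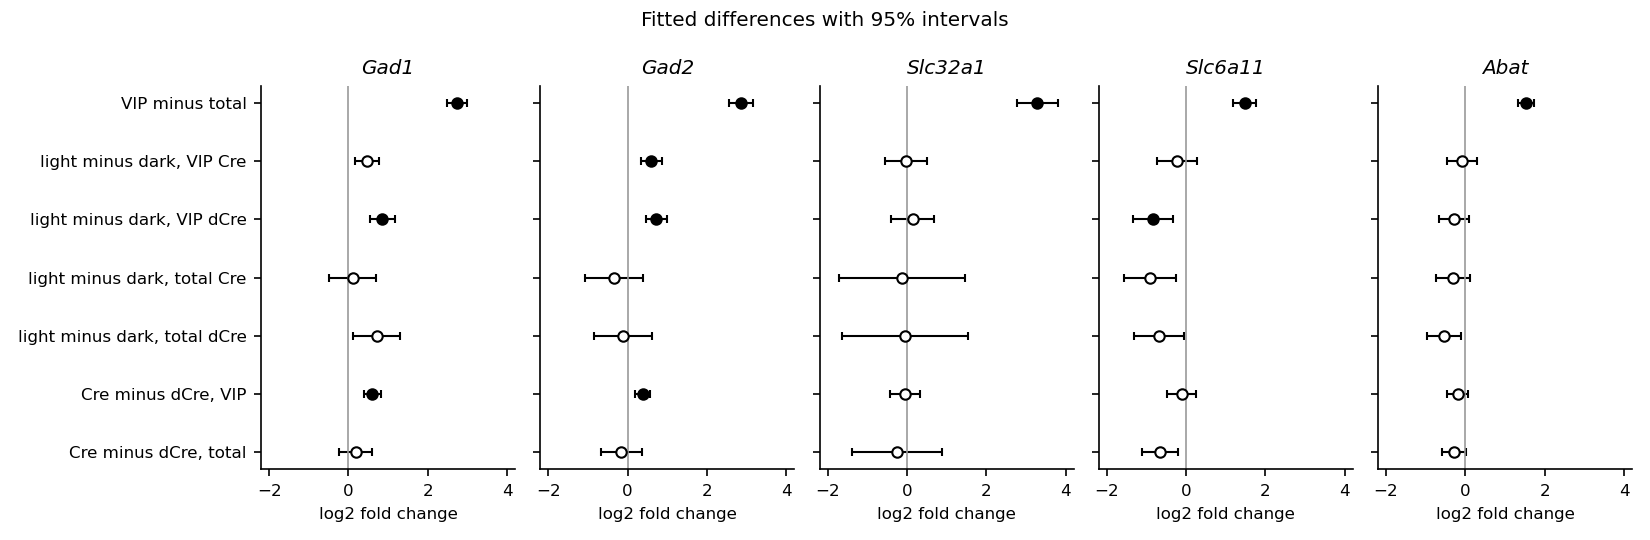
Log2 fold changes from edgeR for the 5 genes in 7 comparisons, each averaged over lines (and over light conditions for Cre minus dCre), with 95% intervals. Filled points passed at an adjusted p under 0.05: all 5 for VIP minus total, Gad1, Gad2 and Slc6a11 for light in dCre VIP nuclei, Gad2 for light in Cre VIP nuclei, and Gad1 and Gad2 for Cre minus dCre in VIP nuclei.

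Cre was compared with dCre over both light conditions and the 3 lines. In VIP nuclei 2.31% of genes were called higher and 1.43% lower with Cre, against 2 higher and none lower of the 5 members. Here 769 genes were called in either direction (3.74%), 0.598% to 11.2% of genes when 1 replicate was left out, 9 genes without E1 dCre dark replicates 1 and 2, 4 without these and those of E123, and 0 with the length index as a covariate (edgeR). This comparison shares the dark dCre libraries with the light comparison in dCre mice, so the values stand side by side and neither supports the other. Gad1 ran from 326.2 through 654.0 to 955.1 CPM with Cre and from 122.0 through 413.9 to 830.0 CPM with dCre (n = 24 each). The log2 difference was 0.60 ± 0.11 (adjusted p = 0.00487), or 1.52-fold. Gad2 ran from 155.6 through 295.5 to 509.4 CPM with Cre and from 100.6 through 232.6 to 389.9 CPM with dCre, a difference of 0.38 ± 0.09 (0.0236), or 1.3-fold. For both genes the ranges overlapped, and the means of Cre groups were higher in 6 of 6 pairs of groups. How many of all genes had such means was not counted.

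By line, the Gad1 difference was 0.37 ± 0.26 after light and 0.97 ± 0.29 in the dark in E1, 0.09 ± 0.27 after light and 0.28 ± 0.27 in the dark in E23, and 0.77 ± 0.27 after light and 1.14 ± 0.29 in the dark in E123. Gad1 passed in E1 in the dark (adjusted p = 0.0262, with 5.09% of genes called higher). In the other 5 pairs of groups no gene of the 20585 was called by edgeR (1095 to 1798 had an unadjusted p under 0.05), E123 in the dark among them, where the Gad1 difference was larger. In the dark, every Cre library of E1 and of E123 lay above every dCre library of its line. After light this was so in E123 (means of 683.0 CPM with Cre and 405.4 with dCre) but not in E1 or E23. Slc6a11 also passed in E1 in the dark, at 35.8, 54.3, 24.6, 33.1 and 7.26 CPM with Cre, against 70.2, 85.7 and 92.6 with dCre (−1.33 ± 0.44, adjusted p = 0.0471, with 4.09% of genes called lower), but its difference over all groups was −0.12 ± 0.18 (0.842). Leaving out 1 library of E1 in the dark ended the Gad1 call in 4 of 8 fits and the Slc6a11 call in 7 of 8. Without dark dCre replicates 1 and 2, which leaves only replicate 3 of that group, the E1 differences of Gad1 and Slc6a11 were 1.11 and −1.55. With the length index as a covariate they were 0.16 and −0.78, and neither passed (edgeR, adjusted p = 0.979 and 0.837).

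Whether the Gad1 and Gad2 differences with Cre passed also depended on the dark dCre libraries, while the differences themselves changed little when these were left out. Without E1 dCre dark replicates 1 and 2 Gad1 differed by 0.63 (adjusted p = 0.0379) and Gad2 by 0.37 (0.182), and without these and the same 2 of E123 by 0.56 (0.0724) and 0.34 (0.377). With the length index as a covariate they were 0.34 (0.61) and 0.31 (0.623), and without E123 Cre dark replicate 3 Gad2 differed by 0.32 (0.0682). The index averaged 2.46 in dark Cre and 3.29 in dark dCre VIP nuclei, and its part in the difference was not tested beyond the covariate. Slc32a1 (−0.05 ± 0.20) and Abat (−0.19 ± 0.14) did not pass. Of the 17 other pathway genes, 3 were higher with Cre, among them Glul (1.19 ± 0.29) and Pdxp (0.92 ± 0.26). In total nuclei no member passed, where 0.0283% of all genes did, and the differences ran from −0.66 ± 0.23 for Slc6a11 to 0.18 ± 0.21 for Gad1.

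Across the 12 groups of VIP nuclei, Gad1 was highest in E1 Cre light (763.8 ± 93.5 CPM, n = 4) and lowest in E123 dCre dark (217.2 ± 78.2, n = 4). Gad2 had the same extremes, 397.1 ± 79.8 and 131.7 ± 38.8 CPM. Between them, Gad1 stood in the order E23 Cre light (757.3), E23 dCre light (711.6), E123 Cre light (683.0), E1 dCre light (595.7), E1 Cre dark (582.3), E23 Cre dark (540.7), E123 Cre dark (471.0), E23 dCre dark (443.3), E123 dCre light (405.4) and E1 dCre dark (318.4). Slc32a1 was highest in E23 Cre light (19.5 ± 5.54 CPM, n = 4) and lowest in E123 Cre light (7.219 ± 3.797, n = 4). Slc6a11 was highest in E1 dCre dark (82.8 ± 11.4, n = 3) and lowest in E23 dCre light (23.9 ± 9.03, n = 4). Abat was highest in E1 dCre dark (127.3 ± 44.6, n = 3) and lowest in E123 Cre light (66.3 ± 21.3, n = 4).

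In total nuclei the group means of Gad1 ran from 45.2 ± 24.6 CPM in E123 dCre dark (n = 4) to 123.7 ± 64.6 in E1 dCre light (n = 5), and those of Gad2 from 24.3 ± 21.8 in E1 Cre light to 54.5 ± 34.9 in E23 dCre dark (n = 4 each). Slc6a11 ran from 4.91 ± 3.29 in E1 Cre light to 26.0 ± 9.63 in E123 dCre dark (n = 4 each), Abat from 19.1 ± 9.97 in E23 Cre light (n = 4) to 44.9 ± 18.1 in E1 dCre dark (n = 3), and Slc32a1 from 0.549 ± 0.494 in E23 dCre light (n = 4) to 2.80 ± 2.17 in E1 dCre dark (n = 3). For each gene and fraction, all 11 pairs of neighbouring groups in the order overlapped, so the order between neighbours is not resolved.

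Between libraries of a group, Gad1 and Gad2 varied together. Over the 48 VIP libraries, with values centred on group means, Pearson's r of log2(CPM + 1) was 0.667 (permutation p = 2e-05, adjusted over 10 pairs 0.0002) and Spearman's rho 0.653 (1e-05, the smallest 100000 permutations can give, adjusted 0.0001). Over the 48 total libraries r was 0.67 (6e-05, adjusted 0.0006) and rho 0.652 (7e-05, adjusted 0.0007). Without the 2 libraries farthest from the median of Gad1, r was 0.697 in VIP and 0.621 in total nuclei. The other 9 pairs of members did not pass in either fraction, with r of −0.16 to 0.339 in VIP nuclei and 0.169 to 0.455 in total nuclei.

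**Figure D4:**
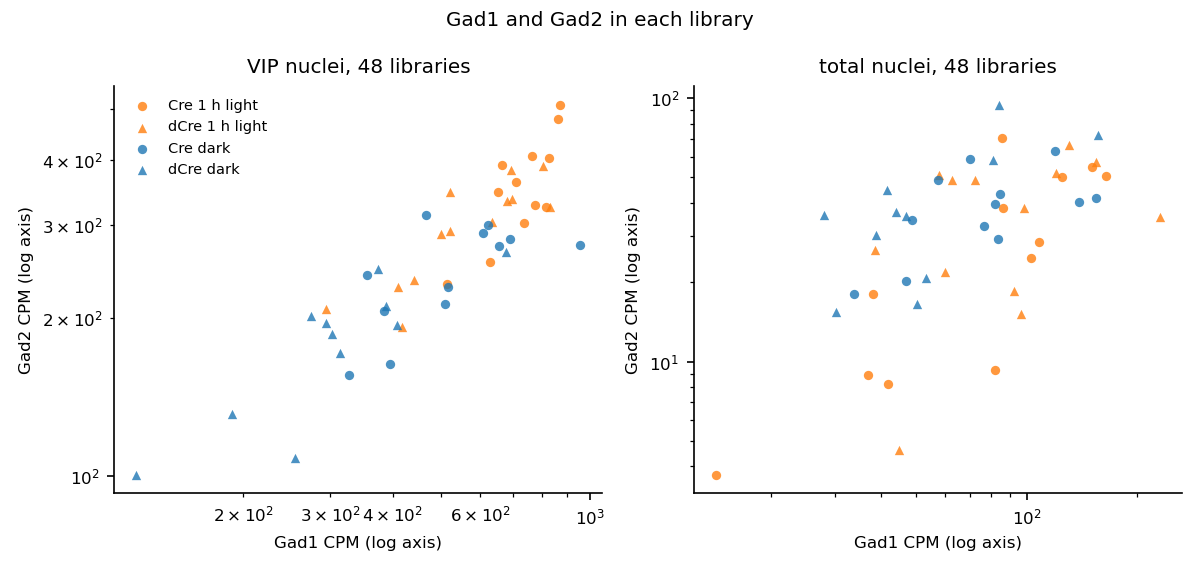
Gad1 against Gad2 CPM in each library on log axes, VIP nuclei left and total nuclei right, coloured by light condition (orange 1 h of light, blue dark) with circles for Cre and triangles for dCre. The points rise together in both fractions. Light VIP libraries reach 867.6 CPM of Gad1 and 509.4 CPM of Gad2, and the highest Gad1 library is a dark one, of E23 Cre, at 955.1 CPM.

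The log2 ratio of Gad1 to Gad2 counts does not depend on the scaling between libraries. It averaged 0.963 ± 0.298 in VIP nuclei and 1.20 ± 0.849 in total nuclei (SD, n = 48 each). In dCre VIP nuclei it was 0.920 ± 0.226 after light and 0.774 ± 0.336 in the dark (n = 13 and 11), a difference of 0.16 averaged over lines (permutation p = 0.172, adjusted over 18 tests 0.309). With Cre it was 1.07 ± 0.274 and with dCre 0.853 ± 0.285 in VIP nuclei (n = 24 each; difference 0.23, permutation p = 0.0106, adjusted 0.0957). In total nuclei it was higher by 0.69 after light with Cre (permutation p = 0.00862, adjusted 0.0957) and by 0.90 with dCre (0.0239, adjusted 0.143). None of the 18 tests passed the adjustment.

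The genes most like each member were ranked by the r of log2(CPM + 1) centred on group means over the 48 VIP libraries, among 6934 genes of at least 20 CPM on average. These are descriptions, since the libraries share depth and scaling. For Gad1 they were Bhlhb9 (0.774), Gprasp2 (0.702) and Gad2, a member (0.667), and for Gad2 they were Gad1, a member (0.667), Dlx1as (0.6) and Metap1d (0.539). For Slc32a1 they were Prox1 (0.65), Slc25a23 (0.607) and Eif2ak4 (0.606). For Slc6a11 they were Nup155 (0.611), Bbs9 (0.61) and Zhx3 (0.606), and for Abat they were Mtmr7 (0.617), Atp5o (0.583) and Nrg4 (0.568).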

How the data were processed

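Nuclear RNA was measured in 96 libraries in 24 groups of 3 to 5. The authors deposited raw counts per gene, whole numbers with no normalization. Per the submitters' processing notes, cutadapt 1.18, STAR 2.5.3a, HOMER 4.9.1 and mm10 were used. The annotation release, the strand setting and whether intronic reads were counted are not given in the sources used here. Per the labels' protocols, libraries were amplified over 17 PCR cycles without mention of molecular identifiers, so floors cover counting error only. Of 55335 identifiers, 181 had no match in the annotation used for names (0.0225% of counts).

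Counts were tested with edgeR 4.0.16 (R 4.3.3, limma 3.58.1): quasi-likelihood F tests with robust estimation, TMM scaling, filterByExpr and 1 coefficient per group, in fits of 96 libraries (22926 genes), 48 VIP libraries (20585) and 48 total libraries (21213). P-values were adjusted over all genes of a fit, and SEs are the fold change over the root of F. Depth was 1559883 to 9122515 counts. Alternatives were DESeq2 1.42.0, other scaling, no filter, covariates, a replicate block and left-out libraries. Fits with covariates, a block or left-out libraries kept the dispersion trend of the full fit. Single-line results with libraries left out were added after seeing the data. Ratios used a pseudocount of 0.5 and correlations log2(CPM + 1), with 100000 permutations (or exact tests for groups under 10). The script was tested on simulated data for light in dCre VIP nuclei. Of 100 genes changed 2-fold it called 38, of 100 changed 4-fold it called 70, and 8 unchanged genes were called. A change of such size can thus fail to pass. The members and lists were chosen with earlier results of these data known. Named genes were the 5 members, the pathway genes that passed and the 3 genes most like each member, and 1 pathway gene is counted but not reported here.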

Additional observations from a re-analysis of the deposited data

Results flagged for a closer look

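Of 100 sets of a gene and a group with 4 to 10 libraries, 2 held a library far from the others, where chance gives about 1 in 20 (20 groups of 3 libraries were not checked). Slc32a1 stood at 3.299 CPM in E23 Cre dark total replicate 2, with the other 3 libraries between 0.5802 and 0.8441 CPM. Abat stood at 55.44 CPM in E1 dCre light VIP replicate 2, with the other libraries of the group between 81.41 and 85.1 CPM. Of 140 tests of a difference in effect between lines, viruses or fractions for the members, none passed (edgeR, adjusted p) and 6 had an unadjusted p under 0.05.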

How the results depend on the processing

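All 5 members stayed higher in VIP than in total nuclei in 48 of 48 fits that left out 1 replicate and in 10 of 10 other settings. The number of members called for light in dCre VIP nuclei was 3, and it was 1 with the length index as a covariate and 0 without E1 and E123 dCre dark replicates 1 and 2. For light in Cre VIP nuclei it was 1, and 0 with no filter on low counts, with 0 to 1 over the fits that left out 1 replicate. For Cre minus dCre in VIP nuclei it was 2, and it was 0 with the length index, 1 without E1 dCre dark replicates 1 and 2, and 0 without these and those of E123, with 1 to 2 over the fits that left out 1 replicate. For light in dCre total nuclei it was 0, and 1 with no filter. The cause of these changes was not tested. The count of all genes called moved by over 1.5 times in 7 of 24 fits that left out 1 replicate for light in dCre VIP nuclei, namely E1 dCre dark replicates 1, 2 and 3 (646, 652 and 2523 genes), E123 dCre light replicate 1 (820), E123 dCre dark replicates 1 and 2 (716 and 719) and E23 dCre dark replicate 1 (785), against 1290. For Cre minus dCre in VIP nuclei it did so in 21 of 48, from 0.598% of genes without E123 Cre dark replicate 3 to 11.2% without E1 dCre dark replicate 3, against 3.74%.

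Values that changed sign had not passed before and did not pass after. For Slc32a1 the VIP minus total light response with dCre (0.17) was −0.66 without E1 dCre dark replicates 1 and 2, −0.97 without these and those of E123, and −0.018 without the libraries against the sex label. Its Cre minus dCre value in VIP nuclei (−0.05) was 0.031 with total counts only and 0.026 with the length index, where Slc6a11 was 0.043. Its light value in dCre total nuclei (−0.05) was 0.037 with total counts only, 0.10 with the replicate block, 0.72 and 1.10 without the 2 or 4 dark libraries and 0.15 without the libraries against the sex label, and its Cre minus dCre value in total nuclei (−0.25) was 0.14 and 0.34 without the 2 or 4. Abat's Cre minus dCre light response in VIP nuclei (0.22) was −0.017 and −0.071 without the 2 or 4, and Gad1's Cre minus dCre value in total nuclei was −0.006 with the length index.

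Over the fits that left out 1 replicate, sign changes gave ranges of −0.037 to 0.247 for Gad1 light in Cre total nuclei, −0.06 to 0.24 for its VIP minus total light response with dCre, and −0.234 to 0.023 for Gad2 light in dCre total nuclei. For Slc32a1 the ranges were −0.189 to 0.013 for Cre minus dCre in VIP nuclei, −0.14 to 0.25 for light in Cre VIP nuclei, −0.67 to 0.18 and −0.29 to 0.15 for light in Cre and dCre total nuclei, −0.29 to 0.11 for the Cre minus dCre light response in VIP nuclei and −0.11 to 0.47 for the VIP minus total light response with dCre.

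With total counts only, the median log2 difference of all genes was −0.24 for VIP minus total and 0.13 for light in dCre VIP nuclei, against −0.11 and 0.01 with TMM. The labels do not say what a replicate number shares, and the samples were not treated as paired in the main fits. That not every same-numbered pair correlated over 0.1 does not show that they are unpaired. If same-numbered VIP and total libraries share a source, the main tests between the fractions leave that pairing out. The deviations of same-numbered VIP and total libraries correlated at a median r of 0.106 (lowest −0.067, 26 of 48 over 0.1), those of different numbers at −0.024 (13 of 148 over 0.1), and 31 of 48 libraries correlated best with their own number, a hint from the data that some share a source. Same-numbered light and dark libraries correlated at a median r of 0.001. In the fit of VIP libraries, the replicate block was line and replicate number, shared across light and virus conditions. It therefore cannot address the pairing of VIP with total libraries. With this block, the Gad1 and Gad2 changes with light in dCre VIP nuclei were 0.86 and 0.74, and the Slc6a11 change was −0.76 (edgeR, adjusted p = 0.0967). At a median of 4 counts per total library, Slc32a1 limits what can be detected there.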
